A study of Mus musculus with 62 samples.

Results

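*S100a4*, *S100a6* and *Myl9* were examined as 3 genes of the 10476 named in a table of read counts per transcript from RNA-seq, Ribo-seq and Disome-seq. They were selected on a difference in translation efficiency (TE), the amount of ribosome footprints relative to mRNA. In these same libraries, their TE was lower in C2C12 cells overexpressing RPL3 than in cells with an empty vector. Values of the C2C12 cells are therefore given below as a description without a test, whereas the heart libraries played no part in the choice. The table lists 5 transcripts of these genes among 23877, and for each gene the transcript with the most counts is described.

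RPL3L can take the place of its ribosomal paralog RPL3 in striated muscle. C2C12, a mouse myoblast line, was infected with a pCX4 retrovirus that was empty (Control C2C12) or encoded RPL3 (RPL3 OE) or RPL3L (RPL3L OE), selected with puromycin and harvested while proliferating, with 3 cultures per group in each assay. All groups thus carried a vector and the selection, and each overexpressing line was compared with the same 3 Control cultures. Hearts came from 4 wild-type (WT) and 4 *Rpl3l* knockout (KO) male mice at 10 weeks of age, made by CRISPR deletion in C57BL/6J zygotes, and the knockout was not limited to a cell type.

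S100 proteins are small dimeric proteins with a pair of EF hands, helix-loop-helix motifs that bind calcium, and they act mainly by binding other proteins once calcium is bound. S100A4 (metastasin) binds nonmuscle myosin IIA and is known from motile fibroblasts and metastatic cells, and S100A6 (calcyclin) was found as a gene induced in cycling cells. MYL9 is a regulatory light chain of smooth muscle and nonmuscle myosin II, whose phosphorylation by myosin light chain kinase switches on contraction, and it too has the EF-hand fold.

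The beginning of each coding sequence is given because these are short reading frames, on which the read counts rest. Both S100 genes lie 6.8 kb apart on chromosome 3 and *Myl9* lies on chromosome 2, all on the plus strand. The lines show the first 30 coding bases, 5′ to 3′, from the GENCODE M21 transcripts (GRCm38), with the start codon in capitals.
S100a4: ATGgcaagacccttggaggaggccctggat
S100a6: ATGgcatgccctctggatcaggccattggc
Myl9: ATGtcgagcaagagagccaaggccaagacc

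*S100a4* (ENSMUST00000001046.6, chr3:90603771-90606045) has 303 coding bases, or 101 codons without the stop codon. *S100a6* has 267 coding bases (89 codons), carried by ENSMUST00000001051.8 (chr3:90612882-90614414), ENSMUST00000198128.1 (chr3:90613305-90614414) and ENSMUST00000200289.1 (chr3:90613760-90624181). The last is annotated as a target of nonsense-mediated decay but shares the coding exons, and it is the one described because its mean count was highest by a few reads. *Myl9* (ENSMUST00000088552.6, chr2:156775420-156781658) has 516 coding bases (172 codons). Of the 5397 genes with a coding sequence that were tested for TE in C2C12 cells, with a median of 1404 coding bases, 1.87% were shorter than *S100a4*, 1.39% were shorter than *S100a6* and 9.73% were shorter than *Myl9*.

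Lysine codons made up 10.9% of *S100a4*, 11.2% of *S100a6* and 8.14% of *Myl9*, against a median of 5.74% over these genes. That share was larger than in 95.1%, 95.9% and 81.9% of the genes, respectively. Proline codons were few, at 3.96%, 1.12% and 3.49%, against a median of 5.47%. Alanine codons made up 4.95%, 10.1% and 6.98%, against a median of 6.90%, so that *S100a6* had more alanine than 89.0% of the genes and *S100a4* more than 13.7%. The coding GC content of 50.8%, 51.7% and 55.6% lay close to the median of 52.8%.

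Reads of these genes can be shared with other annotated transcripts. Of the 276 windows of 28 bases in the *S100a4* coding sequence, 260 (94.2%) also occur in *Gm42674*, a readthrough transcript over the same exons that is not analysed here, so its reads cannot be told apart from those of *S100a4*. Of the 489 windows of *Myl9*, 8 occur in its paralogs *Myl12a* and *Myl12b* and in *Gm2805*. None of the 240 windows of *S100a6* occurs in a transcript of another gene.

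Counts per library ranged from 7647102 to 29746110 for RNA-seq and from 3167026 to 6093268 for Ribo-seq in C2C12 cells, and from 3594696 to 22425296 and from 1606700 to 3192090 in the heart. Depth differed between the C2C12 groups. Control RNA-seq libraries (14324795 to 29746110) were deeper than all of RPL3 OE (7647102 to 11669868) and RPL3L OE cells (8091836 to 9715596). Ribo-seq libraries held 3167026 to 4228211 counts in Control, 3528147 to 5974289 in RPL3 OE and 4957113 to 6093268 in RPL3L OE cells. The part of depth in the values below was not tested. *Rpl3l* (ENSMUST00000170239.8) reached 1986 to 2047 CPM (counts per 1000000 counts of the library) in RNA-seq of RPL3L OE cells and at most 0.822 CPM in the other C2C12 groups, and 370 to 541 CPM in WT against 24.5 to 40.4 CPM in KO hearts. The level of *Rpl3* was not examined here, so the overexpression in RPL3 OE cells was not checked in these counts. The myoblast markers *Myod1*, *Des* and *Cdon* were detected in every C2C12 culture. Their list summed to 401 to 430 CPM in Control, 264 to 291 CPM in RPL3 OE and 465 to 483 CPM in RPL3L OE cells, and of its 4 tested genes 3 fell in RPL3 OE cells by the quasi-likelihood test of edgeR (Benjamini-Hochberg adjusted p under 0.05), which called 7.96% of all transcripts lower, whereas 2 rose in RPL3L OE cells, where 4.65% were called higher. Of 8 fibroblast markers, which summed to 1743 to 1826 CPM in Control, 2633 to 2661 CPM in RPL3 OE and 1918 to 1958 CPM in RPL3L OE cells, 2 of the 6 tested rose in RPL3 OE cells, where 8.13% of transcripts were called higher, and 1 in RPL3L OE cells, and *Thy1* was at 0 counts in all cultures. The part of these differences between the lines in the values below was not tested.

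*S100a4* was among the most abundant of the coding sequences analysed in C2C12 cells, all of them on the plus strand. It ranked 5th of 10457 such genes in Control RNA-seq and 2nd in Ribo-seq by CPM per coding kilobase. Its RNA-seq level was 1654, 1705 and 1745 CPM in the Control cultures, 2081, 2167 and 2103 CPM in the RPL3 OE cultures and 1507, 1465 and 1466 CPM in the RPL3L OE cultures. The 3 groups did not overlap, with the highest RNA level in RPL3 OE and the lowest in RPL3L OE cells. Ribo-seq gave 1321, 1642 and 1446 CPM in Control, 1268, 1234 and 1591 CPM in RPL3 OE and 1280, 1312 and 1163 CPM in RPL3L OE cultures. Footprints of RPL3 OE cells thus overlapped those of Control cells, and RPL3 OE culture 3 stood above the other two.

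**Figure D1:**
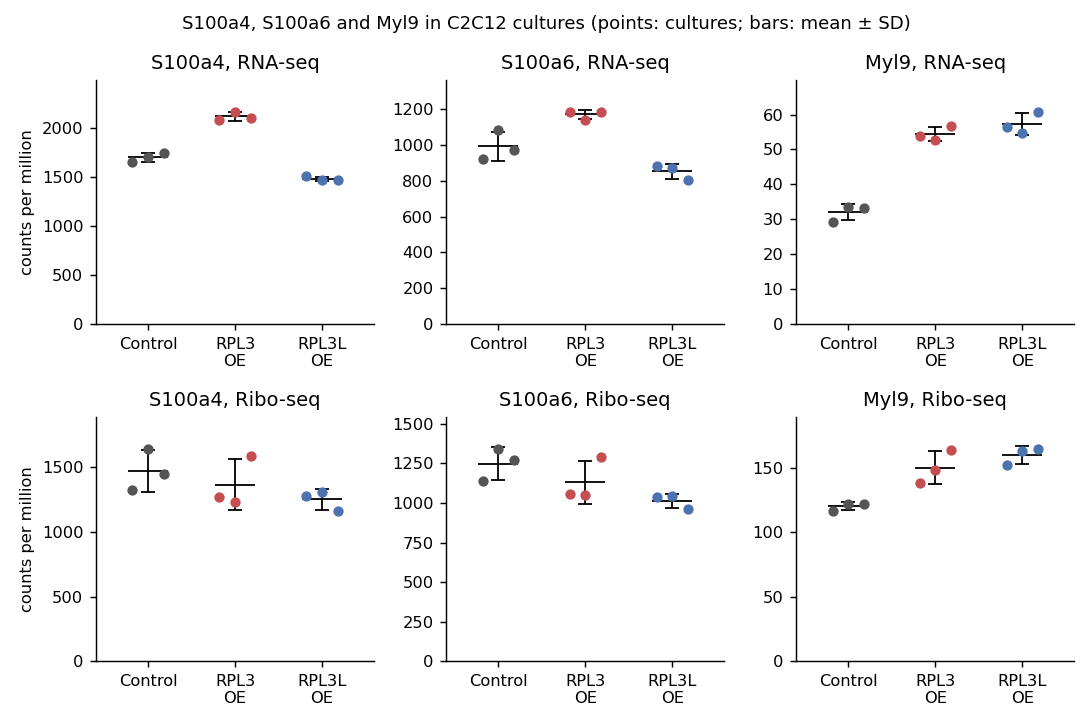
RNA-seq (top) and Ribo-seq (bottom) levels of the 3 genes in CPM for each C2C12 culture, with bars for the mean and SD of 3 cultures. RNA of *S100a4* and *S100a6* was highest in RPL3 OE and lowest in RPL3L OE cells, and *Myl9* RNA was 52.7 to 60.8 CPM in both lines against 29.3 to 33.6 CPM in Control cells.

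The ratio of Ribo-seq to RNA-seq CPM of libraries with the same number, used here to show TE, was 0.80, 0.96 and 0.83 for *S100a4* in Control, 0.609, 0.569 and 0.756 in RPL3 OE and 0.850, 0.896 and 0.794 in RPL3L OE cultures. Paired by number, all RPL3 OE ratios lay below all Control ratios. Those of RPL3L OE cells lay within the Control range apart from a value just below it. The numbers are not known to join libraries of 1 culture, and other pairings let the ratios of Control and RPL3 OE cells overlap. In the model of all 18 C2C12 libraries, TE in RPL3 OE relative to Control cells was -0.42 on the log2 scale (standard error 0.082, 95% interval -0.59 to -0.26), which is 0.745 of the Control value. It was composed of a log2 difference of 0.32 (standard error 0.030) in RNA and of -0.11 (standard error 0.071, interval -0.25 to 0.04) in footprints. The footprints thus did not follow the higher mRNA level.

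In RPL3L OE cells, *S100a4* RNA and footprints were lower than in Control cells by similar amounts, with log2 differences of -0.20 (standard error 0.030) and -0.23 (standard error 0.071). The TE difference was -0.03 (standard error 0.082, interval -0.19 to 0.13). Set directly against RPL3 OE cells, RPL3L OE cells had a TE higher by 0.39 (standard error 0.082), with RNA at -0.52 and footprints at -0.12.

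*S100a6* behaved much like its neighbour. It ranked 9th in RNA-seq and 3rd in Ribo-seq of Control cells by CPM per coding kilobase. RNA-seq gave 922, 1081 and 974 CPM in Control, 1183, 1142 and 1186 CPM in RPL3 OE and 884, 871 and 806 CPM in RPL3L OE cultures, again without overlap. Ribo-seq gave 1137, 1342 and 1270 CPM, 1055, 1051 and 1288 CPM, and 1035, 1046 and 963 CPM, respectively. As for *S100a4*, RPL3 OE culture 3 was the highest of its group in footprints and lay within the Control range, while all RPL3L OE cultures lay below the Control cultures.

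The same-number ratios of *S100a6* were 1.23, 1.24 and 1.30 in Control, 0.891, 0.920 and 1.09 in RPL3 OE and 1.17, 1.20 and 1.20 in RPL3L OE cultures. Paired by number, the groups did not overlap, with the RPL3L OE values just below the Control values and the RPL3 OE values below both. As for *S100a4*, other pairings of the libraries let the groups overlap. The log2 difference in TE between RPL3 OE and Control cells was -0.38 (standard error 0.078, interval -0.54 to -0.23), with 0.24 (standard error 0.036) in RNA and -0.15 (standard error 0.064) in footprints. RPL3L OE cells differed from Control cells by -0.08 (standard error 0.079, interval -0.24 to 0.07) in TE, by -0.22 in RNA and by -0.30 in footprints. Their TE was higher than that of RPL3 OE cells by 0.30 (standard error 0.079).

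*Myl9* differed from both S100 genes in level and in the response to RPL3L. It ranked 1243rd in RNA-seq but 480th in Ribo-seq of Control cells by CPM per coding kilobase. RNA-seq gave 29.3, 33.6 and 33.2 CPM in Control, 53.8, 52.7 and 56.7 CPM in RPL3 OE and 56.5, 54.6 and 60.8 CPM in RPL3L OE cultures. Both overexpressing lines lay above all Control cultures and overlapped each other. Ribo-seq gave 117, 122 and 122 CPM, 138, 149 and 164 CPM, and 152, 164 and 165 CPM, respectively, so that footprints too were above Control in every culture of both lines.

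The same-number ratios of *Myl9* were 3.99, 3.63 and 3.69 in Control, 2.57, 2.82 and 2.89 in RPL3 OE and 2.70, 3.00 and 2.71 in RPL3L OE cultures. Both lines lay below Control and overlapped each other. TE differed from Control by -0.45 on the log2 scale in RPL3 OE cells (standard error 0.088, interval -0.62 to -0.27) and by -0.42 in RPL3L OE cells (standard error 0.087, interval -0.59 to -0.25). RNA was higher by 0.76 and 0.84 (standard error 0.067 each), and footprints by 0.31 (standard error 0.061) and 0.42 (standard error 0.059). Between the overexpressing lines, TE differed by 0.03 (standard error 0.084, interval -0.14 to 0.20). The lower TE of *Myl9* therefore went with more footprints, and that of the S100 genes with footprints near or slightly below the Control level.

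**Figure D2:**
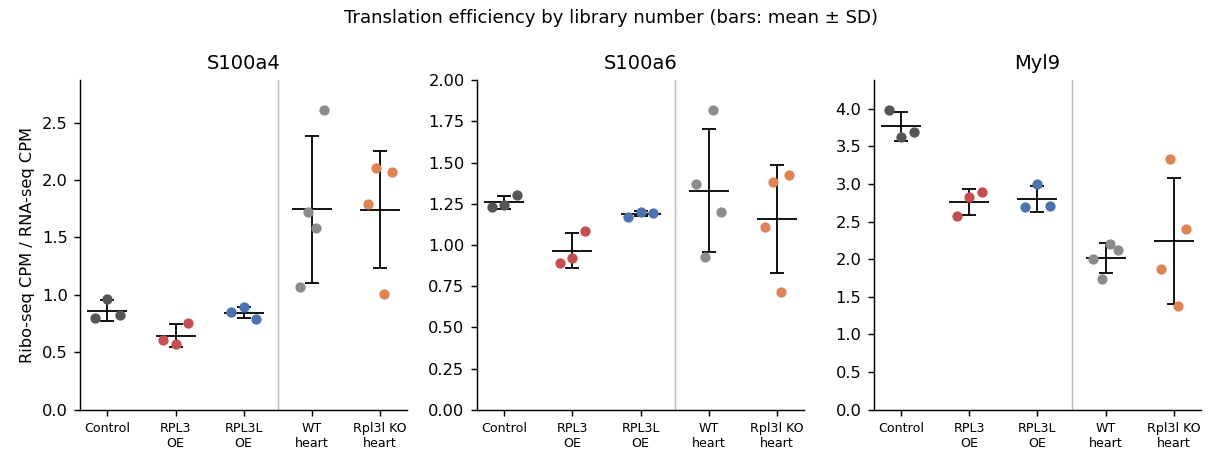
Ratio of Ribo-seq to RNA-seq CPM for libraries with the same number, for 3 cultures of each C2C12 group and 4 hearts of each genotype, with bars for the mean and SD. RPL3 OE cells lay below Control cells for all 3 genes, RPL3L OE cells lay close to RPL3 OE cells only for *Myl9*, and the hearts of the 2 genotypes overlapped.

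**Figure D3:**
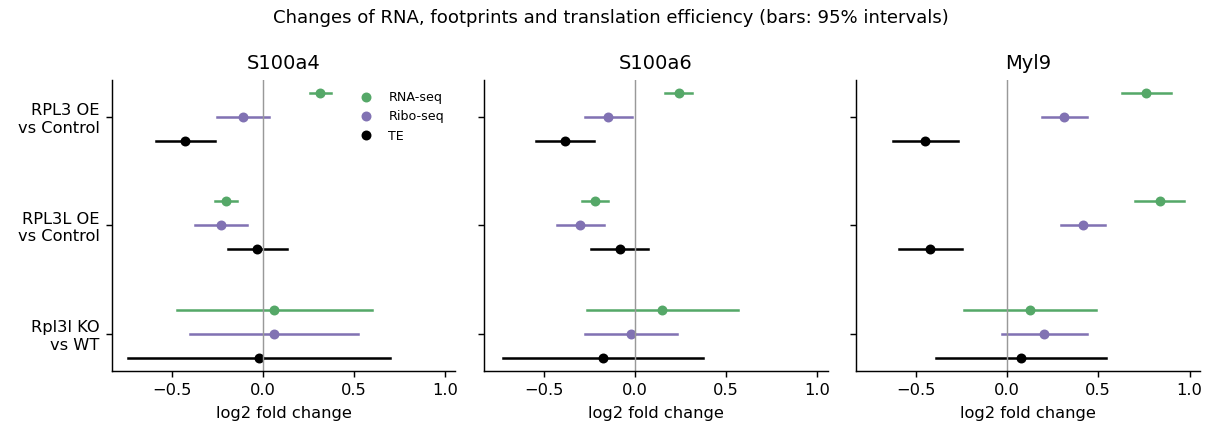
Log2 fold changes of RNA, footprints and TE of the 3 genes with 95% intervals from edgeR, for each C2C12 line against Control and for KO against WT hearts. The C2C12 intervals are a description of the libraries that chose the genes, and every heart interval holds 0.

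These values depended on single replicate numbers, for the S100 genes most on RPL3 OE number 3. Both libraries of a number were left out together. For *S100a4*, the Ribo-seq library of number 3 stood apart (1591 CPM against 1268 and 1234), and its RNA-seq library did not (2103 CPM against 2081 and 2167). Without number 3, the TE difference between RPL3 OE and Control cells was -0.55 for *S100a4*, -0.47 for *S100a6* and -0.47 for *Myl9*. Without any other single number the difference lay between -0.48 and -0.34, between -0.40 and -0.33 and between -0.47 and -0.40, respectively. Libraries of a group that carry the same number in both assays did not deviate together from their group means (correlation across 3473 genes -0.062 to 0.13), so a ratio of 2 such libraries is not known to come from 1 culture.

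The rule from whose calls the genes were drawn was an adjusted p under 0.05 in edgeR's test of TE between RPL3 OE and Control cells. It took 7 of 13457 transcripts (0.0520%), all with lower TE, of which 5 belong to the 3 genes, 3 of them to *S100a6* with the same coding sequence, and 1 each to *Col1a1*, the chain of type I collagen (log2 -0.37, standard error 0.064), and *Thbs1*, the matrix protein thrombospondin-1 (-0.32, standard error 0.064). The rule alone thus did not set the 3 genes apart from these 2. RNA of *Col1a1* and *Thbs1* was higher in RPL3 OE cells by 1.18 and 1.13, and footprints by 0.81 each. In that comparison they resembled *Myl9*, with footprints above Control, rather than the S100 genes. *Col1a1* RNA was 412 to 430 CPM in RPL3L OE and 757 to 779 CPM in RPL3 OE cells, whereas *Myl9* RNA overlapped between these lines. TE of *Col1a1* and *Thbs1* in RPL3L OE cells differed from Control by -0.26 and -0.31. The value of adjusted p on which the rule acted was 0.0142 for each of the 3 genes, and the nearest genes outside were *Ing5* (0.0776, log2 -0.71), *Msl3l2* (0.108, log2 -2.03) and *Larp1b* (0.127, log2 -0.50). The genes inside the rule were thus not those with the lowest TE differences, since *Myl9*, *S100a4* and *S100a6* ranked 156th, 168th and 211th from the lowest of 5500 genes. Their standard errors of 0.078 to 0.088 were smaller than those of *Ing5* (0.16), *Msl3l2* (0.48) and *Larp1b* (0.12).

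The S100 genes were then set beside other abundant and other short mRNAs, classes chosen after the values were seen. Among the 100 genes with the highest Control RNA-seq level per coding kilobase, which include *S100a4* and *S100a6*, the other 98 had a median log2 difference of -0.10 with 90% of the values from -0.23 to 0.04, against a median of -0.002 over the 5394 genes tested apart from the 3 members. The 740 other genes with at most 600 coding bases had a median of -0.01. Since the S100 genes were chosen for a low TE difference in this comparison, their place below these medians is a description. In RPL3L OE cells, the 98 abundant genes had a median of -0.06.

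**Figure D4:**
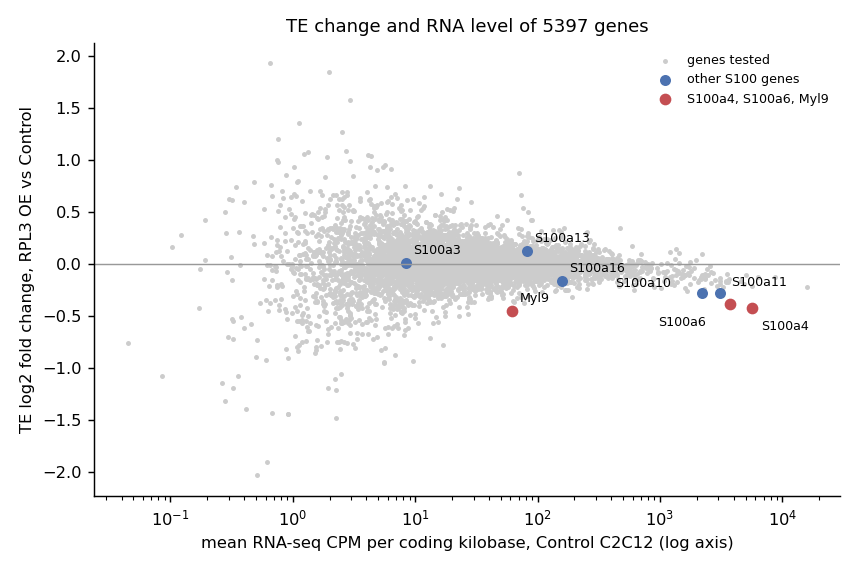
TE log2 fold change between RPL3 OE and Control C2C12 cells against the mean Control RNA-seq level per coding kilobase (log axis), with 1 point per gene for 5397 genes. *S100a4* and *S100a6*, chosen for their low values on the vertical axis, lie at the high end of the level axis near *S100a10* and *S100a11*, and *Myl9* lies at a moderate level.

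The other S100 genes were compared next. Of a list of 16 S100 genes, 12 were in the table, and 5 besides *S100a4* and *S100a6* had enough counts for the TE test. The TE test of edgeR between RPL3 OE and Control cells called 7 of 13457 transcripts (0.0520%), with 1054 at an unadjusted p under 0.05. None of the 5 genes passed the threshold, 2 had an unadjusted p under 0.05 and DESeq2 called 1, *S100a11*. Their median log2 difference was -0.16, against -0.002 over all 5500 genes. The most similar were *S100a11* (-0.28, standard error 0.071, adjusted p = 0.186) and *S100a10*, the partner of annexin A2 (-0.28, standard error 0.078, adjusted p = 0.262). Same-number ratios of *S100a10* were 1.12 to 1.17 in Control, 0.893 to 1.07 in RPL3 OE and 1.13 to 1.21 in RPL3L OE cultures, an order like that of *S100a4*. *S100a16* had a log2 difference of -0.16, *S100a3* of 0.01 and *S100a13* of 0.13. The 4 genes with the lowest values were also the 4 with the highest RNA levels, at 2187 CPM per coding kilobase or more, whereas *S100a16*, *S100a13* and *S100a3* were at 159, 81.6 and 8.41. Of the 4 genes with the lowest values, *S100a4* and *S100a6* were chosen for a low TE difference in this comparison. Their place is a description, and only *S100a10* and *S100a11* were not part of the choice.

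RNA of other S100 genes was compared in the same way. Of the 5 other S100 genes, 3 rose in RNA-seq of RPL3 OE cells (*S100a10* by 0.24, *S100a11* by 0.18 and *S100a16* by 0.20 on the log2 scale), where 8.13% of all transcripts were called higher. In RPL3L OE cells 2 fell, *S100a10* (log2 -0.23) and *S100a13* (log2 -0.26), where edgeR called 4.61% of all transcripts lower. DESeq2 called 3 higher in RPL3 OE and 1 lower in RPL3L OE cells. These 7 genes lie on chromosome 3, from *S100a13* (chr3:90514435-90524581) to *S100a10* (chr3:93555080-93564643).

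None of the partners and other relatives tested passed the edgeR test of TE between RPL3 OE and Control cells. This test called only 7 of 13457 transcripts (0.0520%), so the absence of calls is near the share over all transcripts. An unadjusted p under 0.05 was reached by 1054 of the 13457 transcripts. Of a list of 12 myosin light chains, 6 were in the table, without *Myl6*, *Myl12a* and *Myl12b*, and 2 besides *Myl9* were tested. *Myl4* of atrial and embryonic muscle had a log2 difference of -0.35 (standard error 0.33) and *Mylpf* of fast skeletal muscle one of 0.26 (standard error 0.15). Both had an unadjusted p over 0.05 and no call by DESeq2. Of 31 listed genes of actomyosin contractility, 16 were in the table. Among the 14 tested, 1 had an unadjusted p under 0.05 and DESeq2 called 1, *Cald1*. Their median was -0.02, with values from -0.45 for calponin *Cnn1* and -0.12 for *Tagln2* to 0.12 for *Myh10* and 0.22 for caldesmon *Cald1*. In RNA-seq, 7 of 15 of these genes rose in RPL3 OE cells, where 8.13% of all transcripts were called higher, and 6 of 15 in RPL3L OE cells, where 4.65% were. *Cnn1* had RNA log2 differences of 1.47 and 0.77.

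Of 11 listed protein partners of the S100 proteins, 6 were in the table and 5 were tested. Among these 5, 1 had an unadjusted p under 0.05 for TE and DESeq2 called 0, with *Trp53* (-0.14) and *Anxa2* (-0.12) lowest and *Ppfibp1* (0.01) and *Anxa11* (0.05) highest. Of 18 listed calmodulin and other EF-hand genes, 9 were in the table and tested. Among these 9, 2 had an unadjusted p under 0.05 in RPL3 OE cells and DESeq2 called 0. Over all transcripts, 1054 of 13457 had an unadjusted p under 0.05 in this test of edgeR. *Rcn2* (-0.09) and *Sri* (-0.06) were lowest, and *Ppp3r1* of calcineurin (0.20) and the centrin *Cetn3* (0.34) were highest. *Cetn3* passed in RPL3L OE cells with a log2 difference of 0.55 (standard error 0.098, adjusted p = 0.000956 in edgeR's test), where 2.08% of transcripts were called in either direction.

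The pattern over the 18 C2C12 libraries, with each assay centred on its own mean, was compared among 3408 genes whose counts averaged at least 100 in RNA-seq and in Ribo-seq, as a description of libraries that share groups. *S100a4* was most like *S100a6* (Pearson r = 0.95), *S100a10* (0.95) and *S100a11* (0.92). *S100a6* was most like *S100a10* (0.97), the ribosomal protein gene *Rpl6* (0.96) and *S100a4*. *Myl9* was most like *Ccn4* (0.96), a matricellular protein of the Wnt pathway, calponin *Cnn2* (0.91) and *Sema7a* (0.91), and it was not like *S100a4* (-0.05) or *S100a6* (-0.16). Over these libraries *S100a4* and *S100a6* were thus alike and *Myl9* differed from both. With *Rpl6* among the genes most like *S100a6*, the shared pattern was not limited to S100 genes.

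In the heart, the levels of the 3 genes took another order. The cardiomyocyte markers in the table summed to 37974 to 51041 CPM in WT hearts, against 222 to 229 CPM in Control C2C12 cells. C2C12 and heart libraries were normalized separately, and tissue, preparation and run cannot be told apart, so levels are set side by side without a test. Nor can fewer cells of a type and less RNA per cell be told apart in a whole heart.

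*S100a4* RNA was at 11.5, 8.56, 6.19 and 6.35 CPM in WT hearts, from 35 to 89 counts per library, a mean of 26.9 ± 8.1 CPM per coding kilobase (SD, n = 4) against 5615 ± 151 (SD, n = 3) in Control C2C12 cells. It was 216-fold lower in RNA and 112-fold lower in footprints. *S100a6* was at 310 ± 97.9 CPM per coding kilobase in WT hearts against 3717 ± 302 in Control cells, which is 12.4-fold lower in RNA and 12.1-fold lower in footprints. *Myl9* was at 144 ± 25.5 against 62.1 ± 4.5, which is 2.30-fold higher in RNA and 1.23-fold higher in footprints. In the heart *S100a6* was therefore highest in RNA, followed by *Myl9* and *S100a4*, and neighbours in this order did not overlap.

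**Figure D5:**
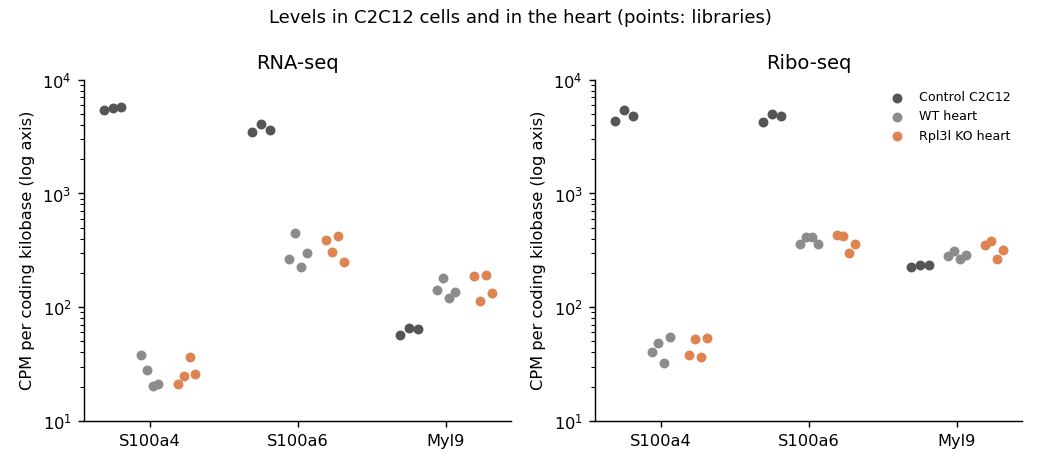
RNA-seq and Ribo-seq levels per coding kilobase (log axis) of each library of Control C2C12 cells, WT hearts and KO hearts. *S100a4* and *S100a6* were lower in the heart than in C2C12 cells in every library, *Myl9* was higher in every library, and the WT and KO hearts overlapped.

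TE differed between tissues in a different way for each gene. The log2 ratio was higher in WT hearts than in Control cells by 0.95 (standard error 0.28) for *S100a4*, differed by 0.04 (standard error 0.20) for *S100a6*, and was lower for *Myl9*, at -0.91 (standard error 0.086). Over 4589 genes this difference had a median of 0.27, with 90% of the values from -1.01 to 1.82. *Myl9* had a high ratio in Control cells, above that of 98.5% of these genes, whereas *S100a4* stood above 27.9% and *S100a6* above 53.4%.

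No difference between KO and WT hearts passed the test for any of the 3 genes. In the TE test of edgeR, which called 0 of 12483 transcripts (0%), with 805 at an unadjusted p under 0.05 and 22 called by DESeq2, the log2 difference of KO from WT hearts was -0.02 for *S100a4* (standard error 0.34, interval -0.74 to 0.69, adjusted p = 0.997). It was -0.17 for *S100a6* (standard error 0.26, interval -0.72 to 0.37, adjusted p = 0.955) and 0.08 for *Myl9* (standard error 0.22, interval -0.39 to 0.54, adjusted p = 0.992). The intervals of *S100a4* and *S100a6* hold the differences seen between RPL3 OE and Control cells, and that of *Myl9* ends just above its own. A difference of that size in the S100 genes could thus not be told from 0 in these hearts.

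RNA of the 3 genes overlapped fully between genotypes. *S100a4* had 6.42, 7.57, 11 and 7.84 CPM in KO hearts, within the WT range, and a log2 difference of 0.06 (standard error 0.25, adjusted p = 0.999 in edgeR's test). *S100a6* ranged from 60.7 to 120 CPM in WT and from 67.2 to 112 CPM in KO hearts (log2 0.15, standard error 0.20, adjusted p = 0.999). *Myl9* ranged from 62.1 to 92.9 CPM in WT and from 58.9 to 98.4 CPM in KO hearts (log2 0.13, standard error 0.17, adjusted p = 0.999). This test called 2 of 15394 transcripts (0.0130%).

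Footprints gave the same picture. *S100a4* was at 9.81 to 16.6 CPM in WT and 11.1 to 16.2 CPM in KO hearts (log2 0.06, standard error 0.22, adjusted p = 0.919), and *S100a6* at 96.3 to 111 CPM and 80.6 to 116 CPM (log2 -0.02, standard error 0.12, adjusted p = 0.952). *Myl9* was at 137 to 162 CPM in WT and 136 to 196 CPM in KO hearts, with a log2 difference of 0.20 (standard error 0.11, interval -0.03 to 0.44, adjusted p = 0.368), where edgeR called 0.764% of 12695 transcripts.

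The ratio of same-number heart libraries scattered widely, from 1.07 to 2.61 for *S100a4* in WT hearts and from 1.38 to 3.33 for *Myl9* in KO hearts. In 6 of 8 hearts, RNA-seq and Ribo-seq libraries of the same number shared their deviations from the group mean (r of at least 0.49 across 1748 genes), but those of KO hearts 2 and 3 deviated in opposite directions (r = -0.75 and -0.81). The *Myl9* ratios of these hearts, 3.33 and 1.38, were the highest and lowest of their group. The tests above do not use the numbers.

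Disome-seq, which sequences the footprints of 2 collided ribosomes, gave few reads on these genes. *S100a4* had 160, 9, 12 and 31 disome counts in WT and 37, 19, 18 and 17 in KO hearts, *S100a6* had 128, 13, 33 and 17 and 51, 12, 22 and 21, and *Myl9* had at most 20. WT heart 1 held most of the WT reads of both S100 genes. Relative to Ribo-seq, disomes of KO hearts differed from WT by -1.09 for *S100a4* (standard error 0.73, adjusted p = 0.618) and by -0.73 for *S100a6* (standard error 0.48, adjusted p = 0.618) in edgeR's test, which called 0 of 1365 transcripts (0%), with 127 at an unadjusted p under 0.05 and 25 called by DESeq2. Without WT heart 1 these values were -0.23 and -0.04, and *Myl9* was too low in counts for the test.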

How the data were processed

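Per the labels, C2C12 cells were profiled by RNA-seq and Ribo-seq, and hearts by these and Disome-seq. The authors deposited raw read counts per transcript. From Ribo-seq and Disome-seq reads they trimmed adaptors with cutadapt, removed rRNA, mapped reads to GRCm38.p6 transcripts and the mm10 genome by STAR, keeping reads with several mappings, collapsed duplicates by UMI and counted with featureCounts. No separate steps for RNA-seq are given in the sources used here, and the strand setting is not given there.

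The 23877 transcripts are listed in 2 identical lines each, and only 1 was kept. Identifiers matched GENCODE M21 for 23662 transcripts. All of them are plus-strand, and minus-strand genes are not analysed here. Isoforms with the same coding sequence but transcript lengths at least 500 bases apart had RNA-seq totals within 1% in 98.9% of 1127 pairs, so levels were divided by coding length. CPM used TMM library sizes. The 2 Disome-seq columns of a mouse were summed.

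The counts went into edgeR 4.0.16 (R 4.3.3) for quasi-likelihood tests of transcripts averaging at least 10 counts per assay, with TMM scaling within each assay, two-sided tests and Benjamini-Hochberg adjustment over all transcripts tested. All C2C12 groups shared a model, and TE was tested as the group-by-assay interaction. A call is an adjusted p under 0.05. The labels give only replicate numbers, and the paper describes its replicates as mice for hearts and as independent samples for C2C12 cells. Any 2 libraries of a group differed beyond sampling noise (chi-square per degree of freedom at least 1.36). Models were tested on simulated data with known changes. Alternatives were other filters, library totals, DESeq2 1.42.0 (its size factors in edgeR, and its Wald test), 1 transcript per gene, replicate blocks, only the groups compared, and each replicate left out.

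The 3 genes, the gene lists and the tests were chosen with earlier results of these data known. Named from each list are the 2 genes with the lowest and the 2 with the highest TE change in RPL3 OE cells and any called, and beside them the other transcripts called, the 3 genes nearest outside the threshold, and the 3 genes most similar to each member over the C2C12 libraries.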

Additional observations from a re-analysis of the deposited data

How the results depend on the processing

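Under the alternatives run, no C2C12 fold change of the 3 genes moved by more than the SD between cultures. TE between RPL3 OE and Control cells was below 0 in 9 of 9 fits without 1 culture and in 9 of 9 other fits for each gene. A fit without 1 culture left out both libraries of its number. All these fits reuse libraries in which the genes were chosen for a low TE, so this sign is a description and no support. The threshold of the choice was not passed in every fit. Without 1 culture, *S100a4* and *Myl9* passed it in 5 of 9 fits and *S100a6* in 6 of 9, since none passed without RPL3 OE culture 1 or 2 or Control culture 3, nor *Myl9* without Control culture 1 or *S100a4* without Control culture 2. Of the other fits, each gene passed in 7 of 9, the exceptions being only the 2 groups compared and DESeq2, which gave *Myl9* no adjusted p. The number of transcripts called ranged from 3 to 74 without 1 culture, with 74 without RPL3 OE culture 3, and was 13 with library totals (6 of them higher), 21 with DESeq2 (6 higher) and 1 with only the 2 groups compared.

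For KO against WT hearts, DESeq2 called 22 transcripts in TE, 11 in RNA-seq, 185 in Ribo-seq and 25 in Disome-seq, with none of the 3 genes among them; *S100a4* had no adjusted p in TE and Ribo-seq. With 1 transcript per gene, 1 was called in RNA-seq and 25 in Ribo-seq, fewer being tested; without a filter Ribo-seq gave 63, and a mean count of at least 50 gave 7 in Disome-seq. Without 1 heart, Ribo-seq gave 16 to 60. The cause of these changes was not tested.

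The direction in the heart was not stable. Without 1 heart, the log2 difference of *S100a4* ranged from -0.25 to 0.25 in TE, -0.13 to 0.25 in RNA and -0.055 to 0.16 in footprints. *S100a6* ranged from -0.37 to 0.038 in TE and -0.090 to 0.070 in footprints, and *Myl9* from -0.13 to 0.28 in TE. With the replicate block by heart, the TE of *S100a4* was 0.018 and otherwise no direction changed. The replicate block by number gave -0.42, -0.39 and -0.45 for *S100a4*, *S100a6* and *Myl9* in TE of RPL3 OE cells; same-numbered C2C12 libraries of different groups did not deviate together (correlations -0.099 to 0.092), so the number is no pairing there. *S100a4* in the heart, with 17 to 262 counts per library, is limited by depth.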
